A study of Mus musculus with 4 samples.

Results

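The 10 integrin genes described here were Itgam, Itgal, Itgax, Itga4, Itga5, Itga6, Itgav, Itgb1, Itgb2 and Itgb7, out of 37074 genes and transcripts named on the array. They were taken by name, as every non-control probe whose gene name in the files is 1 of these 10, which gave 29 of 56605 probes. Messenger RNA was measured in RAW264.7, a mouse macrophage cell line, on 4 one-colour arrays with 1 array per group. The groups were Mfp2-/- cells stimulated with LPS (lipopolysaccharide, the ligand of Toll-like receptor 4 on Gram-negative bacteria), untreated Mfp2-/- cells, wild-type cells stimulated with LPS and untreated wild-type cells, the last called naive in the labels. Mfp2 is the peroxisomal enzyme encoded by Hsd17b4. The sources used here do not state how the gene was disrupted, whether the Mfp2-/- cells are 1 clone, or the dose and duration of LPS.

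Integrins are adhesion receptors made of 1 alpha and 1 beta chain, and a chain reaches the cell surface only as part of a pair. Itgb2 pairs with Itgal (LFA-1, which binds ICAM proteins), Itgam (Mac-1, which binds ICAM-1, fibrinogen and complement fragments) and Itgax (the dendritic cell and macrophage marker CD11c). Itga4 pairs with Itgb1 or Itgb7 and binds VCAM-1, MAdCAM-1 and fibronectin. Itga5 and Itga6 pair with Itgb1 as receptors of fibronectin and laminin, and Itgav takes several beta chains and binds vitronectin and other ligands with an RGD motif. In macrophages these receptors serve adhesion, migration and uptake of coated particles.

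With 1 array per group, no difference between 2 arrays has a replicate check, and the number of arrays limits the precision. Values are the scanner's processed signal on a linear scale, and differences are log2 values after each array was divided by its 75th percentile. A gene was counted as higher or lower at 2-fold or more. Repeated spots of the same probe put the technical SD of such a difference at 0.0768 to 0.13 log2, which leaves out the spread between cultures. The LPS comparisons and the genotype comparisons use the same 4 arrays, so they are not independent of each other. Hsd17b4 had a signal of 1217 in Mfp2-/- cells with LPS against 2915 in wild type with LPS, and 2545 in untreated Mfp2-/- cells against 4482 in untreated wild type, so its transcript was lower (-1.21 and -0.89 log2) and was still measured. Its probe is not known to lie in the disrupted part and so does not check the knockout. Of 12 macrophage markers, Itgam among them, 11 were well above background on all 4 arrays. Of 5 fibroblast markers 0 were above background on any array, and of 8 T cell markers 3 were above background on all 4. These array levels cannot tell fewer expressing cells from less RNA per cell.

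Of the 29 integrin probes, 19 were well above background on all 4 arrays, 5 on some arrays and 5 on none. Each gene had at least 1 probe measured on every array, and its brightest such probe stands for it in the counts. LPS went with more Itgal and Itga5 transcript and less Itga4 transcript in both genotypes, while the brightest probes of Itgam and Itgb1 stayed within 0.25 log2 over the 4 arrays. Between the genotypes, Itgb7 differed most, being lower in Mfp2-/- cells under both conditions. In Mfp2-/- cells 4 of the 10 members were higher with LPS and 1 was lower, where 11.1% and 12.4% of all genes compared were higher and lower. In wild type 5 were higher and 1 lower, where 9.97% and 8.39% of all genes were. The median of the members was 0.89 in Mfp2-/- cells and 1.04 in wild type, beside medians of 0 and 0.03 over all genes compared.

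**Figure D1:**
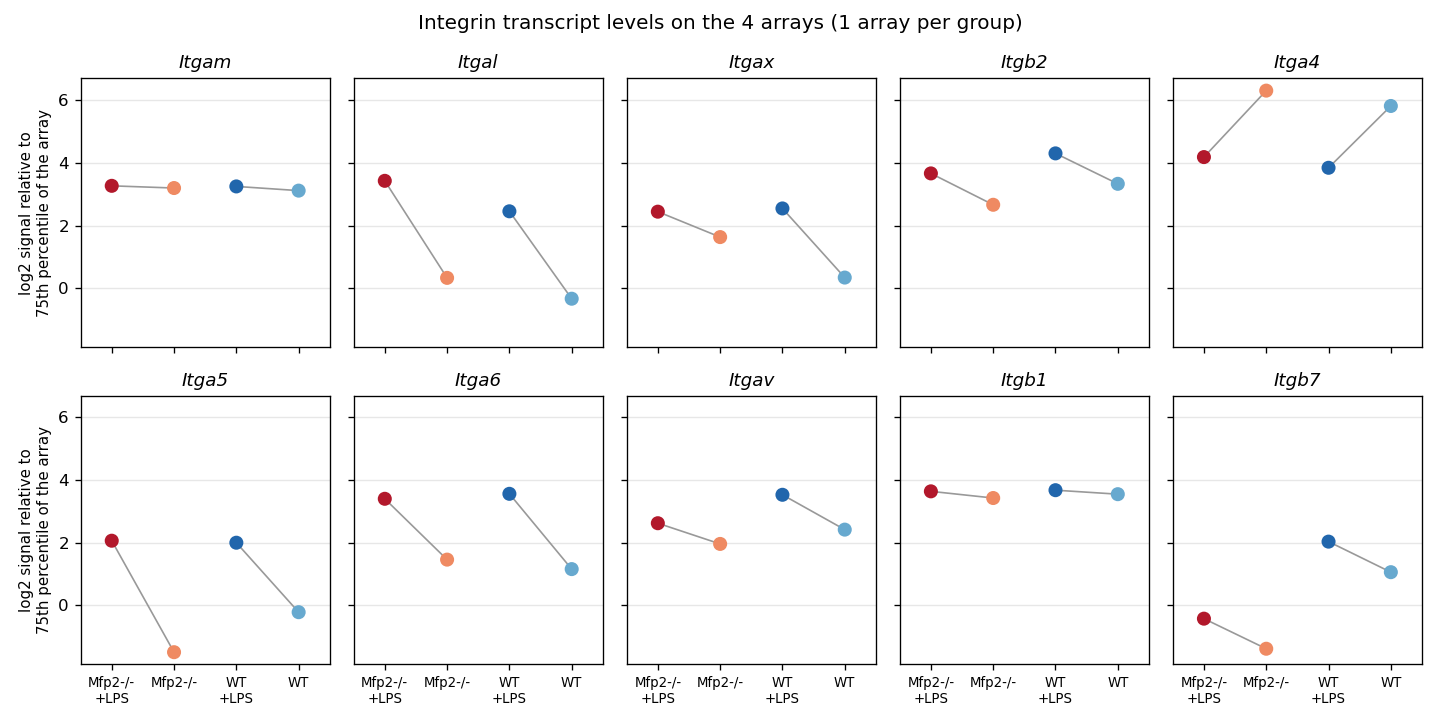
Log2 processed signal relative to the 75th percentile of the array, for the brightest probe of each gene. Each point is 1 array, grey lines join the untreated and LPS arrays of a genotype, and heights are to be compared within a panel only. Itga4 is the panel in which both LPS points lie below the untreated points, and Itgb7 the one in which both Mfp2-/- points lie below both wild-type points.

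The leukocyte chains that pair with Itgb2 did not move together. Itgal had a signal of 4984 with LPS and 713 without in Mfp2-/- cells, against 2635 with LPS and 428 without in wild type. Both LPS arrays lay above both untreated arrays, and on this probe Mfp2-/- was the higher genotype in each condition. The LPS difference was 8.56-fold in Mfp2-/- cells and 6.91-fold in wild type, and the probe lies at chr7:134477160-134477219 in the mm9 coordinates of the files. A pair of dimmer Itgal probes, designed on the cDNA AK154115, gave 3.26 and 3.49 log2 in Mfp2-/- cells and 2.23 and 2.94 in wild type. These probes share a run of 56 of their 60 bases, so they are close to 1 measurement. Their difference between Mfp2-/- and wild type was 0.64 and 0.75 log2 with LPS, but -0.39 and 0.20 without, so the Itgal probes disagree on the direction in untreated cells. Among the T cell markers, Cd3g, Cd2, Cd8a and Trac were below background throughout, while Cd3e, Cd3d, Lck and Cd4 were measured on some or all arrays. The summed signal of that list was 4104 with LPS and 1908 without in Mfp2-/- cells, and 3252 with LPS and 1610 without in wild type, and its part in the Itgal values was not tested.

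Itgam, the neighbour of Itgax on chromosome 7, was nearly level. Its signal was 4462 with LPS and 5202 without in Mfp2-/- cells, and 4568 with LPS and 4672 without in wild type. After scaling the 4 arrays spanned 0.15 log2, and the LPS differences of 0.07 in Mfp2-/- cells and 0.13 in wild type are of the size of the technical SDs of 0.13 and 0.0768. The second Itgam probe, assigned to transcript variant 2 (NM_008401), was dim: 37.3 with LPS and 12.6 without in Mfp2-/- cells, and 43.1 with LPS and 17.5 without in wild type. It was below background without LPS in both genotypes, and was at least 2.26-fold and 2.16-fold higher with LPS in Mfp2-/- cells and wild type, so the 2 Itgam probes differ in their LPS response.

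Itgax had a signal of 2519 with LPS and 1758 without in Mfp2-/- cells, against 2807 with LPS and 683 without in wild type. The wild-type array without LPS was the low one, and the LPS arrays were alike. The LPS difference was 1.75-fold in Mfp2-/- cells, short of 2-fold, and 4.61-fold in wild type. A dimmer Itgax probe (AK089167) was below background in both untreated cultures and at least 2.22-fold and 2.04-fold higher with LPS in Mfp2-/- cells and wild type. Of 6 dendritic cell markers Zbtb46, Xcr1, Clec9a and Cd209a were below background throughout and Flt3 and Siglech were measured. The summed signal of that list was 23354 with LPS and 10255 without in Mfp2-/- cells, and 20903 with LPS and 20799 without in wild type. On the wild-type arrays and the untreated Mfp2-/- array only 1 of the 6 was above background, so there the sum is in effect 1 gene. The part of such cells in the Itgax values was not tested.

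Itgb2, the shared beta chain, had a signal of 5873 with LPS and 3592 without in Mfp2-/- cells, against 9486 with LPS and 5430 without in wild type. Both genotypes had more with LPS, and wild type had more in each condition. The LPS difference was 2.0-fold in Mfp2-/- cells and 1.96-fold in wild type, just above and just below 2-fold. Under quantile normalization and spike-in centring the Mfp2-/- value was 0.89 and 0.76 log2, below the threshold.

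The promoters of Itgam and Itgax are shown because these genes lie next to each other, with 0 protein-coding genes between them, while their brightest probes differ in LPS response. RefSeq promoter sequence in GRCm38.p6 was given for 7 of the 10 members, and the 250 bases before each start were searched on both strands for GAGGAAG (a core bound by PU.1, the macrophage lineage factor), TGAGTCA (the AP-1 site) and GGGACTTTC (part of an NF-kB site). Capitals mark the matches.
Itgam, chr7:128062390-128062639, plus strand: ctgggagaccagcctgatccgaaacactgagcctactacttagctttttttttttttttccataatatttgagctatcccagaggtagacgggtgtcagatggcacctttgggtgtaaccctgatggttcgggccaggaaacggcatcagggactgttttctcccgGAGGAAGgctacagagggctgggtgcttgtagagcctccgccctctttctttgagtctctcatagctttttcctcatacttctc
Itgax, chr7:128129300-128129549, plus strand: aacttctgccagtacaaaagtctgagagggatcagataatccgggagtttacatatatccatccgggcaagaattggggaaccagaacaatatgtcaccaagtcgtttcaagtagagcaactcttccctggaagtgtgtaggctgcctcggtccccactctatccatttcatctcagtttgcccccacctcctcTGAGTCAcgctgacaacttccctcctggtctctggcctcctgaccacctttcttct
The PU.1-like letters begin 84 bases before the start of Itgam and the AP-1 letters 56 bases before that of Itgax. GAGGAAG was in 10.6% of all 32851 promoter windows of this length and, among the members, in those of Itgam and Itgav. TGAGTCA was in 4.46% of all windows and only in that of Itgax among the 7, and GGGACTTTC was in 0.289% and in 0 of the 7. The motifs do not overlap, and a match is a description of letters, not of binding.

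Among the chains that bind VCAM-1 and MAdCAM-1, Itga4 was lower with LPS on every measured probe. The brightest Itga4 probe (chr2:79173193-79173252, NM_010576) had a signal of 8427 with LPS and 44863 without in Mfp2-/- cells, against 6900 with LPS and 30381 without in wild type. Both untreated arrays lay far above both LPS arrays. The signal with LPS was 4.35-fold lower in Mfp2-/- cells and 3.92-fold lower in wild type. The other 4 probes measured on all 4 arrays differed by between -2.84 and -1.43 log2 in Mfp2-/- cells and by between -2.06 and -1.30 in wild type. A sixth probe was below background with LPS and at least 2.93-fold lower in Mfp2-/- cells and at least 1.61-fold lower in wild type.

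One Itga4 probe and a pair of Itgb1 probes are shown because their files' coordinates span more than their length, so they read across a splice junction and tell spliced message or isoforms apart. Capitals in the Itgb1 probes mark the 23 bases that they share.
Itga4, A_66_P140103, chr2:79153985-79155115: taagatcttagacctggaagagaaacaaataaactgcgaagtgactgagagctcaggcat
Itgb1, A_66_P113059, chr8:131250081-131255976: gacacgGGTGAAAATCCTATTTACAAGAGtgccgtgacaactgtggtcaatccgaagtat
Itgb1, A_52_P69236, chr8:131250931-131255949: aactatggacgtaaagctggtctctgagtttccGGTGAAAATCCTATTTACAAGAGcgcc
The junction probe of Itga4 had a signal of 118 with LPS and 691 without in Mfp2-/- cells, and 90.2 with LPS and 423 without in wild type. It was lower with LPS in both genotypes, by -2.26 and -2.06 log2.

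Itgb1, the common beta chain of the matrix receptors, was nearly level on its brightest probe, which had a signal of 5769 with LPS and 6091 without in Mfp2-/- cells, and 6139 with LPS and 6307 without in wild type. All 4 arrays lay within 0.25 log2 after scaling. The junction probe A_66_P113059 had 1030 with LPS and 884 without in Mfp2-/- cells, and 1032 with LPS and 917 without in wild type, or 0.51 and 0.34 log2 between LPS and untreated. These differences are short of 2-fold and several times the technical SDs of 0.13 and 0.0768. A_52_P69236, described in the files as the integrin beta1D mRNA (U37029), a form known from striated muscle, was below background on all 4 arrays, with signals between 4.98 and 17.7.

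Itgb7, which forms a gut-homing receptor with Itga4, was the member with the largest difference between genotypes. Its signal was 345 with LPS and 217 without in Mfp2-/- cells, against 1968 with LPS and 1123 without in wild type. Both Mfp2-/- arrays lay below both wild-type arrays. The signal was 5.50-fold lower in Mfp2-/- cells with LPS and 5.44-fold lower without. LPS went with 1.95-fold more in Mfp2-/- cells and 1.97-fold more in wild type, short of 2-fold in each. This gene has 1 probe, at chr15:102046450-102046509.

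Of the matrix receptors, Itga5, the alpha chain of the classical fibronectin receptor, had the largest LPS difference of any member in Mfp2-/- cells. Its single probe (chr15:103175022-103175081) had a signal of 1935 with LPS and 201 without in Mfp2-/- cells, against 1921 with LPS and 464 without in wild type. The LPS arrays of the genotypes were alike, and the untreated Mfp2-/- array was the lowest. The LPS difference was 11.8-fold in Mfp2-/- cells and 4.65-fold in wild type.

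Itgav had a signal of 2850 with LPS and 2206 without in Mfp2-/- cells, against 5545 with LPS and 2880 without in wild type. The wild-type array with LPS stood above the other three. LPS went with 1.58-fold more in Mfp2-/- cells and 2.16-fold more in wild type, and the wild-type value was 0.98 log2 under quantile normalization and 0.89 with spike-in centring, below the threshold, as was the mean of its probes (0.93). A dimmer probe (ENSMUST00000148256) gave 0.07 log2 in Mfp2-/- cells and 0.88 in wild type.

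The probes of Itga6, a laminin receptor chain, went opposite ways. The brightest (A_55_P1958840, chr2:71690633-71690692), assigned to the transcript ENSMUST00000139760, had a signal of 4892 with LPS and 1560 without in Mfp2-/- cells, against 5665 with LPS and 1202 without in wild type. It was 3.84-fold and 5.29-fold higher with LPS. The probe A_55_P2015670 (chr2:71694756-71694815), assigned to the RefSeq transcript NM_008397, had 53.1 with LPS and 168 without in Mfp2-/- cells, against 130 with LPS and 318 without in wild type. That probe was lower with LPS, by -1.37 log2 in Mfp2-/- cells and -1.13 in wild type. A further probe of NM_008397, A_55_P2742291, was at least 3.59-fold lower with LPS in Mfp2-/- cells and differed by -1.11 in wild type. The Itga6 count as higher with LPS thus rests on 1 probe, and the cause was not tested. The mean over all Itga6 probes was -0.05 log2 in Mfp2-/- cells and 0.09 in wild type. That mean takes in probes below background on all 4 arrays. A junction-crossing probe of another RefSeq form, A_65_P04508 (NM_001277970), was below background on all 4 arrays.

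**Figure D2:**
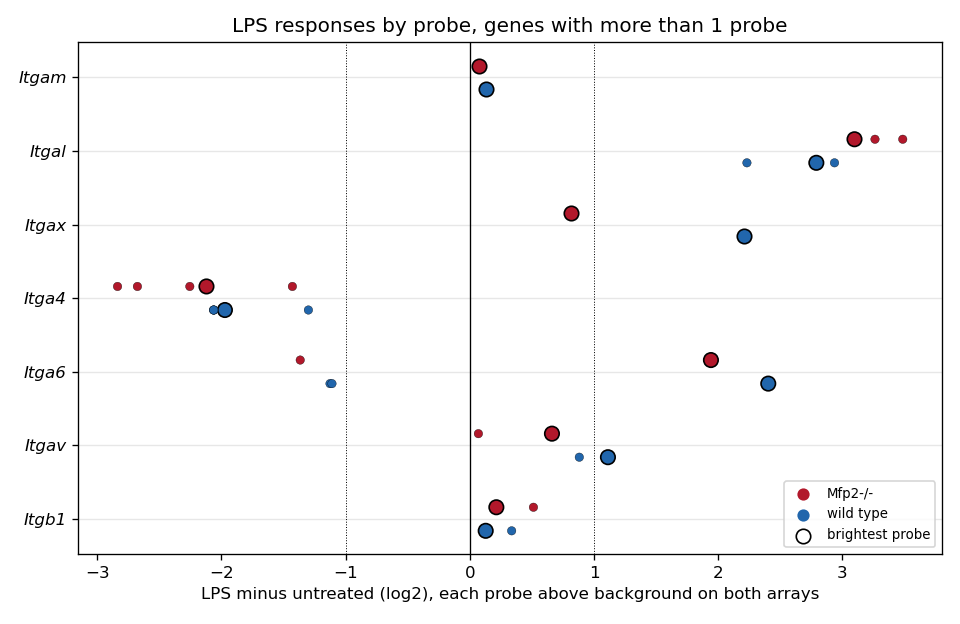
LPS minus untreated, in log2, for each probe above background on both arrays, in the 7 genes with more than 1 probe. Large outlined points are the brightest probe of a gene, and dotted lines mark 2-fold. Probes of Itga4 lie to the left of 0 and those of Itgal to the right in both genotypes, while the brightest Itga6 probe lies right and its RefSeq probes left.

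The comparison of genotypes without LPS asked whether the cells differed before stimulation. Of the 10 members 1 was higher in untreated Mfp2-/- cells, Itgax with 1.29 log2 (2.45-fold), and 2 were lower, Itgb7 with -2.44 and Itga5 with -1.28. Over all genes compared 3.01% were higher and 4.05% lower. The Itgax value was 0.54 with the mean of its probes, of which 2 were below background in both untreated cultures. Itga4 (0.49) and Itgb2 (-0.67) differed by less than 2-fold, though by several times the technical SD of 0.0978. The brightest probes of Itgal (0.67) and Itgav (-0.46) did too, but other probes of these genes went the opposite way, at -0.39 for Itgal and 0.28 for Itgav, and the means over all probes were 0.16 and -0.14. All 6 Itga4 probes were higher in untreated Mfp2-/- cells, between 0.49 and 0.75 log2. Itgam (0.08) lay within that SD. The RefSeq probes of Itga6 gave -0.997 and -1.03, and its brightest probe 0.30.

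With LPS, 0 members were higher in Mfp2-/- cells by 2-fold and 1 was lower, Itgb7 with -2.46 log2, where 1.67% and 4.64% of all genes were. Itgal came closest from the other side with 0.97, or 1.96-fold, and passed 2-fold with median centring (1.15). Itgav was -0.91 and Itgb2 -0.64. Itga5 (0.06), Itgax (-0.10), Itgam (0.02) and Itgb1 (-0.04) lay within the technical SD of 0.115. On the RefSeq probe A_55_P2015670 Itga6 was lower, at -1.24, against -0.16 on its brightest probe.

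**Figure D3:**
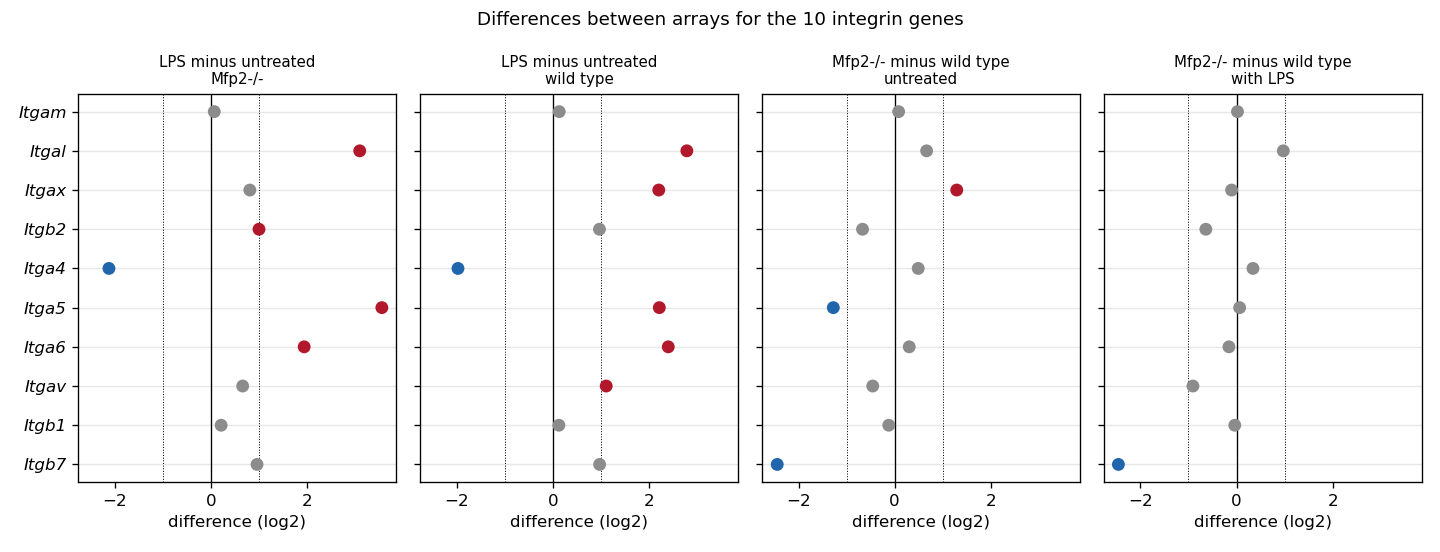
Differences in log2 between pairs of arrays for the 10 members, with the LPS responses of Mfp2-/- and wild-type cells in the left panels and Mfp2-/- minus wild type in the right panels. Red points are 2-fold or more higher, blue points 2-fold or more lower, and dotted lines mark 2-fold. Itgb7 is blue in both genotype panels at -2.44 and -2.46, and Itga5 and Itgax are coloured in the untreated genotype panel but grey in the one with LPS.

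The LPS response was also compared between the genotypes, as the Mfp2-/- difference minus the wild-type difference, with no test. Of the 10 members 1 was 2-fold or more higher in this measure, Itga5 with 1.34 log2, and 1 lower, Itgax with -1.39, where 1.64% and 2.99% of all genes measured on the 4 arrays were. The technical SD of this measure was 0.151. For both genes the untreated arrays carry the gap, since the LPS arrays differ by 0.06 and -0.10 log2. Itga5 fell short of 2-fold with normexp background correction (0.85), as did Itgax with the mean of its probes (-0.86). On their brightest probes the other members ranged from -0.46 (Itga6) to 0.31 (Itgal), and Itgb7 (-0.01) and Itgb2 (0.03) were level. Dimmer probes measured on all 4 arrays differed more for some. The 2 dimmer Itgal probes gave 1.03, past 2-fold, and 0.55. A dimmer Itgav probe gave -0.81, and those of Itga4 gave between -0.77 and -0.13.

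An additive fit put all 4 arrays into 1 model with a term for LPS and a term for genotype (limma, Benjamini-Hochberg adjustment over 17377 genes). Each gene is left with 1 residual degree of freedom, and a gene whose LPS responses differ between genotypes has that difference counted as noise. In this fit 5 members rose with LPS and 1 fell, where 11.1% and 10.6% of all genes did. Itgal rose by 2.94 ± 0.148 log2 (SE, limma adjusted p = 0.0257) and Itga5 by 2.89 ± 0.404 (SE, limma adjusted p = 0.0384). Itga4 fell by 2.05 ± 0.126 (SE, limma adjusted p = 0.0259). Itgb2 rose by 0.99 ± 0.119 (limma adjusted p = 0.0336) and Itgb7 by 0.97 ± 0.118 (limma adjusted p = 0.0340). The fifth was Itga6 on its brightest probe (2.17, limma adjusted p = 0.0281), which on its RefSeq probe fell by 1.25 (limma adjusted p = 0.0318). Itgax (1.51, limma adjusted p = 0.0939), Itgav (0.89, limma adjusted p = 0.0579), Itgb1 (0.17, limma adjusted p = 0.344) and Itgam (0.10, limma adjusted p = 0.543) did not pass. Over the other settings the limma adjusted p ranged from 0.0358 to 0.123 for Itgax and from 0.0176 to 0.0878 for Itgav, and both passed with normexp correction and with a trended prior, which made 7 members higher. Itgav also passed with median centring and when genes had to be above background on all 4 arrays. Itgam passed with the mean of its probes (0.88, limma adjusted p = 0.0446, against a range up to 0.860 over the other settings). That mean takes in the dim Itgam probe, which was below background on both untreated arrays. For the genotype term 0 genes passed in limma, 0% of those fitted in each direction, while 1688 had an unadjusted p under 0.05. Itgb7 had a genotype term of -2.45 ± 0.118 (SE, limma adjusted p = 0.0959), and its adjusted p ranged from 0.0178 to 0.122 over the other settings.

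Other integrin chains were mostly dark in these cells. Of 11 other alpha chains on the array 3 were above background on at least 1 of the Mfp2-/- arrays and 4 on at least 1 of the wild-type arrays. Itga7, a laminin receptor chain known from muscle, had a signal of 629 with LPS and 338 without in Mfp2-/- cells, against 1308 with LPS and 745 without in wild type. It was 1.19 log2 higher with LPS in Mfp2-/- cells, and lower in Mfp2-/- than in wild type by -1.21 untreated and -1.002 with LPS. A second Itga7 probe gave -0.76 between the LPS arrays, short of 2-fold. With normexp correction or spike-in centring, 0 of these alpha chains were higher with LPS in Mfp2-/- cells. With median centring 0 were lower in Mfp2-/- cells with LPS, and with the mean of probes 0 were lower in either condition. Itgae, the chain that forms an E-cadherin receptor with Itgb7, was measured in untreated wild type only, at a signal of 138. It was at least 7.20-fold lower in untreated Mfp2-/- cells, and at least 5.60-fold lower in wild type with LPS. Of 6 genes listed as other beta chains, the beta-like gene Itgbl1 among them, 3 were above background.

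The Itgav partners Itgb3 and Itgb5 had their own patterns. Itgb3, the vitronectin receptor chain abundant in osteoclasts, had a signal of 62.7 with LPS and 168 without in Mfp2-/- cells, against 51.5 with LPS and 29.5 without in wild type. The untreated Mfp2-/- array was the highest, 2.44 log2 above untreated wild type. Only 1 of the 2 Itgb3 probes was above background on both untreated arrays. The summed signal of 6 osteoclast markers, of which Calcr was below background throughout, was 35965 with LPS and 44992 without in Mfp2-/- cells, against 50525 with LPS and 31720 without in wild type. This sum is of unscaled signals. After scaling, the median LPS difference of the 5 markers above background was 0.32 log2 in Mfp2-/- cells and 0.49 in wild type. Between untreated cultures their median was -0.47, with 1 of the 5 higher in Mfp2-/- cells by 2-fold or more and 2 lower. The part of osteoclast-like cells in the Itgb3 values was not tested. Itgb5 had 610 with LPS and 1661 without in Mfp2-/- cells, against 418 with LPS and 1330 without in wild type, and was lower with LPS by -1.15 and -1.50 log2.

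The lists of genes that act with integrins were written with earlier results of these data known. Of 39 adaptors that activate integrins or link them to actin, 34 were above background in each LPS comparison, and 7 were higher and 2 lower with LPS in each genotype. Their medians were 0.27 in Mfp2-/- cells and 0.38 in wild type. Over all genes compared, 11.1% were higher and 12.4% lower with LPS in Mfp2-/- cells, and 9.97% and 8.39% in wild type. Fyb, an adaptor of integrin activation, was 2.13 log2 higher with LPS in Mfp2-/- cells and 1.996 in wild type, and Tln2, a talin, was -1.84 and -2.16. A second Tln2 probe, measured in wild type, gave -0.14 there. Lims2, an adaptor of the integrin-linked kinase, was 4.15 higher with LPS in Mfp2-/- cells and 2.51 in wild type. Its signal was 377 with LPS and 26 without in Mfp2-/- cells, against 2007 with LPS and 395 without in wild type, so both Mfp2-/- arrays were the lower ones in their condition.

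Between genotypes, 4 of the 35 adaptors above background were lower in Mfp2-/- cells and 0 higher, without and with LPS, where 4.05% and 4.64% of all genes were lower. With normexp correction 2 were lower without LPS, and with median centring 1 was higher with LPS. They were Lims2 (-4.0 and -2.36), Parvb (-1.04 and -1.52), Cytip and Fermt2. Cytip, a regulator of the Itgb2 integrins, was at least 21.3-fold lower untreated and at least 3.20-fold lower with LPS. Fermt2, a kindlin, was at least 3.95-fold and 11.4-fold lower. Tln1 and Fermt3, the talin and kindlin of blood cells, differed between genotypes by between -0.12 and -0.01 log2 in either condition. They were 0.89 and 0.53 higher with LPS in Mfp2-/- cells and 0.83 and 0.60 in wild type.

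Among 26 kinases and exchange factors downstream of integrins, all above background, 6 were higher with LPS and 0 lower in each genotype. They included the kinases Src, Fgr, Lyn and Syk and the signalling adaptor Fcer1g. Over all genes compared, 11.1% were higher and 12.4% lower with LPS in Mfp2-/- cells, and 9.97% and 8.39% in wild type. Src was 4.28 log2 higher with LPS in Mfp2-/- cells and 3.47 in wild type. The probes of Lyn disagreed, at 1.58 and -0.38 in Mfp2-/- cells and 1.31 and -0.16 in wild type. In untreated Mfp2-/- cells 2 of the 26 were lower than in untreated wild type, Src (-1.48) among them, where 4.05% of all genes were. With LPS 0 of the 26 differed by 2-fold between genotypes, where 1.67% of all genes were higher and 4.64% lower.

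Of 40 ligands and counter-receptors 17 were above background in each comparison. With LPS 8 were higher and 3 lower in Mfp2-/- cells, and 7 were higher and 2 lower in wild type, with medians of 0.86 and 0.81. Over all genes compared, 11.1% were higher and 12.4% lower with LPS in Mfp2-/- cells, and 9.97% and 8.39% in wild type. With normexp correction the wild-type count was 4 higher and 1 lower, and spike-in centring gave 4 higher and 2 lower there. Tnc, the matrix protein tenascin C, was 3.73 higher in Mfp2-/- cells and 4.57 in wild type, and C3, the complement protein whose fragments bind the Itgam and Itgax receptors, 2.31 and 1.70. Icam4, a ligand of leukocyte integrins, was -2.01 and -1.62. Icam1, the main ligand of the Itgal receptor, was 0.86 higher with LPS in Mfp2-/- cells and 0.42 in wild type, short of 2-fold. Vcam1, the cell-surface ligand of Itga4 integrins, was below background on all 4 arrays. Between genotypes, 3 of the 17 were lower in untreated Mfp2-/- cells and 4 with LPS, and 0 were higher in either condition. Over all genes compared, 4.05% and 4.64% were lower, and 3.01% and 1.67% higher. With normexp correction 1 ligand was lower untreated and 2 with LPS. Among those lower, F11r, the junction protein that binds the Itgal receptor, was at least 10.1-fold lower untreated and -1.89 log2 with LPS.

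Itgal and Itga5 had the widest ranges over the 4 arrays, 3.76 and 3.56 log2. Among the 15528 genes above background on all 4 arrays, the centred profiles nearest to Itga5 were those of Cd44, Rgs1 and Pip5k1a, at root mean square differences of 0.0349, 0.102 and 0.107 log2. Cd44, the hyaluronan receptor, was 3.46 higher with LPS in Mfp2-/- cells and 2.23 in wild type. Nearest to Itgal were Arl5c, Tnfaip2 and Pla2g5, at 0.114, 0.132 and 0.162. With 4 arrays such likeness is a description of 4 values.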

How the data were processed

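Per the labels, Cy3-labelled cRNA made out of total RNA was measured on 1 Agilent array per group, all on 1 slide, so that slide position and group cannot be told apart. Per the file headers, each scanner file gives linear intensity per spot from Feature Extraction 10.7.1.1. The submitters' processing notes name version 9.5.1.1 of that program. Background subtraction, detrending and surrogate values for low spots had been applied within each array, and nothing between arrays, per the file headers. The deposited flags, a unit of the type other, say per spot whether it is well above background or an outlier. In the deposited series table, linear intensity has quartiles that are equal on all arrays, and this table served as an alternative.

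The processed signal was divided by its 75th percentile on the array (463 to 567) and log2 transformed. Between 47.4% and 49.7% of non-control spots were well above background and 0 were saturated. Control and outlier spots were left out. Probes and genes were matched on the gene name in the files, and coordinates of probes are in mm9. In counts a gene was represented by 1 probe, preferring a value on all 4 arrays, then signal above background, then brightness. Where 1 of 2 arrays was below background, that array took the larger of the probe's signal and the dimmest signal flagged well above background, and such folds read at least. The additive fit used genes above background on at least 2 arrays (lmFit and eBayes of limma 3.58.1, R 4.3.3). Other steps used Python 3.11.15 with pandas 2.3.3, and figures matplotlib 3.10.9. The call rule and the fit were tested on simulated data.

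The members, lists and naming rule were chosen with earlier results of these data known. Named genes are all members with all probes, Hsd17b4, Itgb3, Itgb5, genes of the fixed lists with the largest differences of 2-fold or more, and the 3 nearest profiles of the 2 members with the widest range. Icam1, Vcam1, Tln1, Fermt3, the junction probes and the promoters of Itgam and Itgax were chosen after their values were seen. The plan had been to show promoters of members that move together. One gene that the naming rule selects is not reported here. The planned selection of probes by their translation in a RefSeq protein was not run, because no protein table was used here. Promoter sequences are RefSeq's, in GRCm38.p6. Alternatives were normexp (offset 50), quantile normalization, the series table, spike-in centring (7 probes), median centring, thresholds of 1.5-fold and 4-fold, other filters on dim probes, averaging all probes of a gene, a trended prior and, chosen after seeing the data, the RefSeq-assigned probe of each gene. The averages take in probes below background.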

Additional observations from a re-analysis of the deposited data

Results flagged for a closer look

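Itgb3, a partner of Itgav that is not among the 10 members, differed with LPS in opposite directions in the genotypes, by -1.13 log2 in Mfp2-/- cells and by 0.97 in wild type. The gap between these responses was -2.10 log2 and was not tested, since each response is the difference of 2 single arrays. The summed osteoclast marker signal, before scaling, was 35965 with LPS and 44992 without in Mfp2-/- cells. In wild type it was 50525 with LPS and 31720 without. After scaling, the median LPS difference of the markers above background was 0.32 log2 in Mfp2-/- cells and 0.49 in wild type. The part of osteoclast-like cells was not tested. The Itgb3 signals were low, between 29.5 and 168, and come from 1 of its 2 probes. Only that probe was above background on both Mfp2-/- arrays.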

How the results depend on the processing

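Replicate numbers gave no further pairing, because each group has 1 array. The additive fit already compares LPS with untreated within each genotype. No array could be left out. Recomputed member counts stayed within 1.5 times the reported count in 122 cases and moved further in 20. The filters on dim probes could not change the 2-fold counts, because every member's brightest probe was above background on all 4 arrays. The series table nearly repeats quantile normalization, with a median gap of at most 0.0017 log2 per array after centring. The 122 cases therefore hold some that were fixed beforehand or counted again. With the mean of all probes, 3 members were higher with LPS in wild type, 0 were higher in untreated Mfp2-/- cells and 0 had the smaller response in Mfp2-/- cells. With the RefSeq-assigned probe of each gene, 2 members were lower with LPS in Mfp2-/- cells, 2 in wild type and 2 in the additive fit, and 2 were lower in Mfp2-/- cells with LPS than in wild type with LPS. The added gene was Itga6 each time. At 1.5-fold, 7 were higher with LPS in Mfp2-/- cells, beside 3766 of 18402 genes compared. In untreated Mfp2-/- cells 2 were higher at 1.5-fold, beside 1279 of 18415 genes. With LPS 1 was higher and 3 lower in Mfp2-/- than in wild type at that threshold. At 4-fold, 2 were higher with LPS in Mfp2-/- cells, beside 640 of 18402 genes. In wild type 0 were lower with LPS at 4-fold, beside 262 of 18213 genes. In untreated Mfp2-/- cells 0 were higher and 1 lower at 4-fold, beside 91 and 218 of 18415 genes. With median centring 1 member, Itgal, was higher in Mfp2-/- cells with LPS, and with normexp correction 0 had the larger response in Mfp2-/- cells. The genotype term of the additive fit called 1 member lower, Itgb7, with median centring, normexp correction and a trended prior.

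Of single members only Itga6 turned round among the values called. Its LPS difference in Mfp2-/- cells was -0.0528 log2 with the mean of its probes and -1.37 on its RefSeq probe, in wild type -1.13 on that probe, and the LPS term was -1.25. Spike-in centring moved the median of all genes in the LPS comparisons to -0.22 in Mfp2-/- cells and -0.20 in wild type, and ended the 2-fold calls of Itgb2 and Itgav. With it 4 adaptors were higher and 4 lower with LPS in Mfp2-/- cells, and 4 ligands were higher and 2 lower in wild type. With normexp correction 4 ligands were higher and 1 lower with LPS in wild type, 1 was lower with LPS in Mfp2-/- cells, and 2 adaptors and 1 kinase were lower in untreated Mfp2-/- cells. Over all genes the LPS term called 1936 higher and 1843 lower as reported, 3095 and 2882 with normexp correction, 3362 and 3090 with a trended prior, and 1484 and 3114 with spike-in centring. The causes were not tested. Signal over background limits the dim probes, for which bounds alone are given.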
